A study of Gallus gallus with 6 samples.

Results

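The let-7 family was described across 6 small RNA libraries of abdominal fat from broiler chickens (Gallus gallus). Its members were taken by name: every row of the deposited miRNA table whose name begins with let-7 followed by a letter, kept when the name ends in -5p or carries no arm. The rule gave 8 members of the 667 miRNAs listed, namely gga-let-7a-5p, gga-let-7b, gga-let-7c-5p, gga-let-7d, gga-let-7f-5p, gga-let-7g-5p, gga-let-7i and gga-let-7k-5p, given below without the species prefix gga-, and 6 further rows ending in -3p that served as passenger arms. The birds were female chicks from a feeding study of 240 animals in which 5 diets supplied DL-α-tocopherol acetate, an ester of vitamin E, at 0, 20, 50, 75 or 100 IU. The libraries came from day 35, 3 from birds given 50 IU vitamin E and 3 from controls. The dose in the control diet is not printed beside its samples, and the labels do not state whether each library is a different bird. The p-values below therefore rest on the spread among libraries, and that spread may be technical.

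let-7 was found in the nematode Caenorhabditis elegans as a gene that times development, and its family is among the most conserved of animal miRNAs. Members share a seed, the stretch near the 5′ end that pairs with target mRNAs, and in mammals they repress growth genes such as HMGA2, MYC and RAS. The RNA-binding protein LIN28 blocks the maturation of let-7 precursors, and in mouse preadipocytes let-7 is reported to restrain growth before differentiation. Each let-7 precursor is a hairpin with a 5p and a 3p arm. The 5p arm is normally the guide strand that is kept, and the 3p arm, the passenger, is mostly degraded.

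The chicken assembly GRCg7b lists 11 let-7 genes, most of them close together. Within 50 kb of each other lie let-7a-3 and let-7b, then let-7d, let-7f and let-7a-1, and also let-7j and let-7k. The let-7c gene lies near miR-99a and a copy of miR-125b, and let-7a-2 near miR-100 and another copy of miR-125b. The genes of let-7g and let-7i have no neighbour among these. Since let-7a-5p can come from several hairpins and isoforms differ by few bases, and since the sources used here do not state how shared reads were assigned, the split between near-identical isoforms is uncertain.

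Library totals were 5844435 to 7062595 reads for vitamin E, against 5028671 to 7357204 for control. The marker miRNAs listed for fat had rows for 3 of 4 names, and none of them is confined to fat cells. Their sum was 214400 to 248000 TPM with vitamin E and 229000 to 260400 in control, with miR-26a-5p the most abundant of all 667. Summed markers of other tissues were 22000 to 30340 against 25230 to 30540 TPM for endothelium, 9674 to 13870 against 8617 to 13530 for leukocytes and 246 to 546 against 230 to 398 for striated muscle. The groups did not overlap for red cells at 3250 to 5580 against 1452 to 2940 TPM, epithelium at 293 to 373 against 194 to 269, nervous tissue at 154 to 177 against 29.4 to 39.3, or liver at 5.30 to 7.71 against 12.6 to 20.7. Within these sums miR-451 of the red cell list and miR-200b-3p of the epithelial list were apart. The other members of these lists, miR-144-3p, miR-144-5p, miR-200a-3p, miR-429-3p and miR-205a, overlapped. On the muscle list, whose sum overlapped, miR-1a-3p was apart at 1.88 to 5.52 against 1.59 to 1.80 TPM, and the far more abundant miR-133a-3p overlapped. On the nervous list miR-9-5p and miR-124a-3p were both apart. The liver list holds miR-122-5p alone, at 31 to 104 reads a library. miR-9-5p, at 146 to 167 against 26.4 to 36.5 TPM, was the 1 miRNA of 238 called by the edgeR test given below. Over those 238 miRNAs the groups were apart in TPM for 13.0%. The muscle marker miR-206 and the endothelial miR-126-5p were at 0 in 3 and in 4 of the 6 libraries and under 0.2 TPM in the others. The part of these tissues in the let-7 values was not tested, and in bulk tissue fewer cells of a type and less RNA per cell cannot be told apart.

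The family was an abundant one, and its total did not separate the groups. Together the 8 members took 9.54%, 8.19% and 7.55% of all counts in the vitamin E libraries, against 9.01%, 7.48% and 6.72% in the control libraries. The highest libraries were vitamin E 1 and control 1, and the ranges of the groups overlapped. The group values were 8.43% ± 1.02 with vitamin E and 7.74% ± 1.17 for controls (SD, n = 3 each).

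let-7f-5p was the most abundant member, ranked 8 among all miRNAs. It stood at 37173, 32715 and 27291 TPM with vitamin E and at 38523, 29351 and 29334 TPM in control. TPM here is the count scaled to a library total of 1e+06, with no length term, mature miRNAs being about alike in length. The groups overlapped almost fully, with control 1 the highest library and vitamin E 3 the lowest.

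let-7a-5p came next, at 23923, 18966 and 18784 TPM with vitamin E and 22909, 16759 and 14693 TPM in control. Its lowest library, control 3, and its highest, vitamin E 1, differed 1.63-fold. let-7a-5p lay below let-7f-5p in 6 of 6 libraries, by ratios of 1.45 to 2.0, and above every other member. These 2 isoforms made up 62.7% ± 1.53 of the family's reads with vitamin E and 65.1% ± 3.26 for controls (SD, n = 3 each).

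Behind them came a group of isoforms with no fixed order. let-7k-5p had 7573, 8152 and 5981 TPM with vitamin E and 8675, 6165 and 7299 TPM in control. let-7c-5p, whose gene lies beside miR-99a, had 9643, 6998 and 7887 TPM with vitamin E and 8303, 6045 and 4432 TPM in control. Each exceeded the other in some libraries, let-7k-5p being the higher in 4 of 6.

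let-7i, from a gene with no let-7 neighbour, stood at 4331, 5471 and 5285 TPM with vitamin E and 5485, 6639 and 4838 TPM in control. let-7g-5p, likewise from a lone gene, stood at 5827, 4958 and 5689 TPM with vitamin E and 2981, 5223 and 3938 TPM in control. let-7b, a neighbour of let-7a-3, stood at 6864, 4544 and 4487 TPM with vitamin E and 3184, 4490 and 2641 TPM in control. For let-7g-5p and let-7b the 2 lowest libraries were controls and the highest was vitamin E 1, but control 2 lay among the vitamin E libraries in both cases. By mean level the order was let-7k-5p, let-7c-5p, let-7i, let-7g-5p and let-7b. Each neighbouring pair kept that order in 4 of 6 libraries. Differences between isoforms were not tested.

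let-7d was far below the rest. It had 85.4, 59.3 and 64.1 TPM with vitamin E and 64.9, 87.3 and 60.6 TPM in control, from 391 to 499 counts a library. let-7b, the next member above it, exceeded it by 43.6 to 80.4 times. In GRCg7b the let-7d gene is a neighbour of let-7f and let-7a-1, the genes named for the most abundant isoforms.

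**Figure D1:**
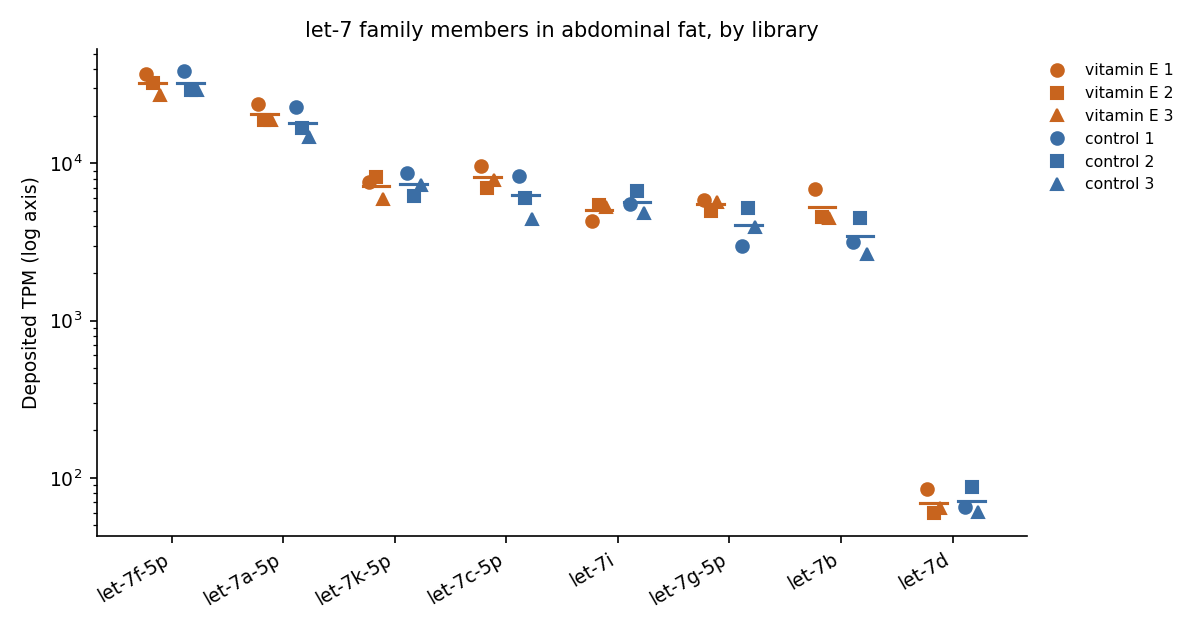
Deposited TPM on a log axis for the 8 let-7 members, in order of mean level, with vitamin E libraries in orange left of control libraries in blue; marker shapes give the replicate number and bars the group means. The groups overlap for every member, let-7f-5p and let-7a-5p stand above the rest in all libraries, and let-7d lies near 70 TPM.

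None of the 8 members passed the test between vitamin E and control. By the quasi-likelihood test of edgeR, adjusted by Benjamini-Hochberg across the 238 miRNAs left after the filter on low counts, 0 of 8 members were called, where 1 of 238 (0.420%) was called over all miRNAs. The smallest unadjusted p among the members was 0.129 in edgeR's quasi-likelihood test, so 0 of 8 lay under 0.05, against 18 of 238. DESeq2 and limma-voom also called 0 of the 8 members. No member's groups were apart in TPM, against 13.0% of the miRNAs tested.

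The fitted log2 fold changes of vitamin E over control had a median of -0.04 over the members and -0.07 over all 238, with 4 members above 0 and 4 below. With scaling by library totals alone, which shifted all log2 fold changes by a median of 0.107, the members again had 4 above and 4 below. With upper-quartile factors 3 were above and 5 below.

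let-7b had the largest fitted change, a log2 fold change of 0.52 (SE 0.31, 95% interval -0.19 to 1.22; edgeR adjusted p = 0.721), and it was 0.27 without vitamin E 1 and 0.30 without control 3. The values for the others above 0 were 0.35 (SE 0.25) for let-7g-5p, 0.25 (SE 0.33) for let-7c-5p and 0.05 (SE 0.28) for let-7a-5p. Leaving out control 1 took let-7g-5p to 0.17, and leaving out control 3 took let-7c-5p to -0.033 and let-7a-5p to -0.17. The sign of let-7a-5p also turned with upper-quartile factors, at -0.05, and without vitamin E 1 or control 2. Below 0 stood let-7i at -0.28 (SE 0.24), let-7k-5p at -0.15 (SE 0.27), let-7d at -0.13 (SE 0.34) and let-7f-5p at -0.13 (SE 0.26). let-7k-5p stood at -0.0098 without control 1 and at -0.029 with totals alone. let-7i stood at -0.18 without control 2, at -0.46 without control 3 and at -0.17 with totals alone.

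For let-7f-5p the 95% interval ran from -0.72 to 0.46 on the log2 scale, and for let-7a-5p from -0.60 to 0.70. With 3 libraries a group, differences within these bounds are not excluded. The bounds are not a limit of detection, since let-7b at a log2 fold change of 0.52 was not called either. Leaving out control 1 took let-7f-5p to 0.036, and leaving out control 2 took let-7d to 0.013.

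**Figure D2:**
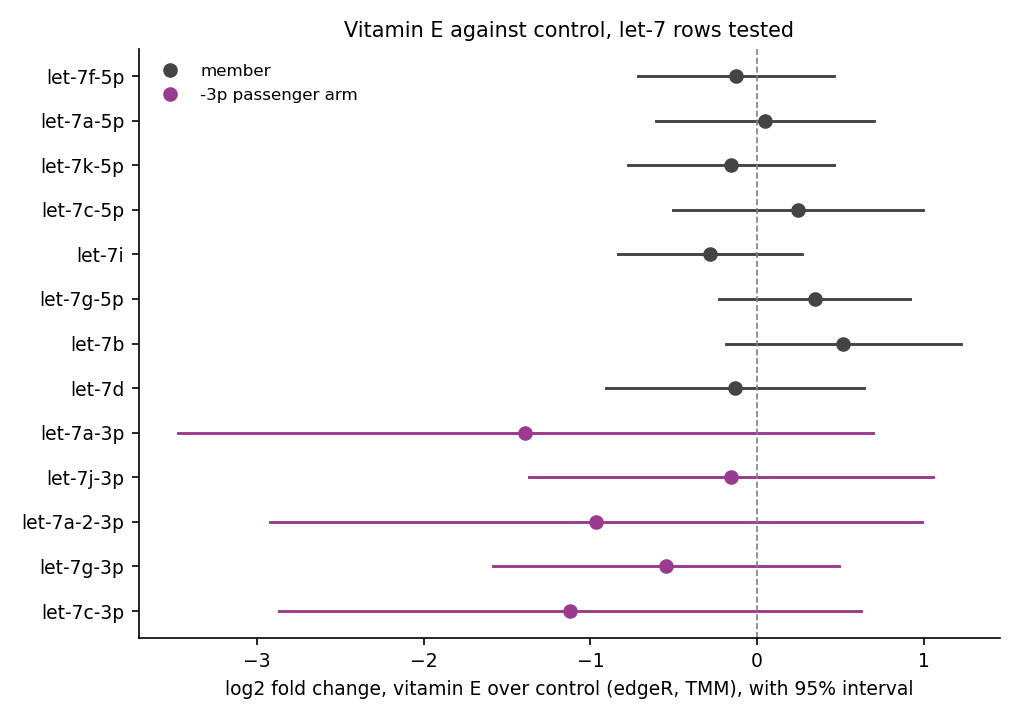
Log2 fold change of vitamin E over control from edgeR, TMM-scaled, for the 8 members (dark grey) and the 5 tested passenger arms (purple). The 95% intervals were derived from edgeR's F statistic. All intervals include 0; those of the passenger arms are wider, and all 5 passenger estimates lie below 0, though let-7j-3p turns positive with scaling by totals alone and 4 of the 5 are above 0 without control 1.

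The make-up of the family was next compared as each member's percent of the reads of all 8, which needs no scaling between libraries. let-7f-5p made up 39.0%, 40.0% and 36.2% of the family with vitamin E and 42.7%, 39.3% and 43.6% in control. It was the member with the largest difference, -3.52 percentage points (38.4% ± 1.97 with vitamin E and 41.9% ± 2.31 for controls; SD, n = 3 each), and the groups overlapped, since control 2 lay below vitamin E 2. The exact permutation p was 0.2, two-sided, where 3 libraries against 3 cannot go below 0.1.

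let-7c-5p took 10.1%, 8.55% and 10.5% with vitamin E, against 9.21%, 8.09% and 6.59% in control. let-7b took 7.19%, 5.55% and 5.95% with vitamin E, against 3.53%, 6.01% and 3.93% in control. The mean of each was 1.74 percentage points higher with vitamin E, and both overlapped between groups. For let-7c-5p the difference was 1.05 percentage points without control 3. Over the 8 members the exact permutation p ran from 0.2 to 0.5, and it was 0.5 for all after Benjamini-Hochberg adjustment over the 8 shares with all libraries included.

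Control 1 had the smallest share of both let-7b and let-7g-5p, with let-7g-5p at 3.31% where the other 5 libraries had 5.86% to 7.54%. The ratio of let-7f-5p to let-7a-5p was 1.55, 1.73 and 1.45 with vitamin E and 1.68, 1.75 and 2.0 in control. The groups overlapped for this ratio too, with control 3 the highest.

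**Figure D3:**
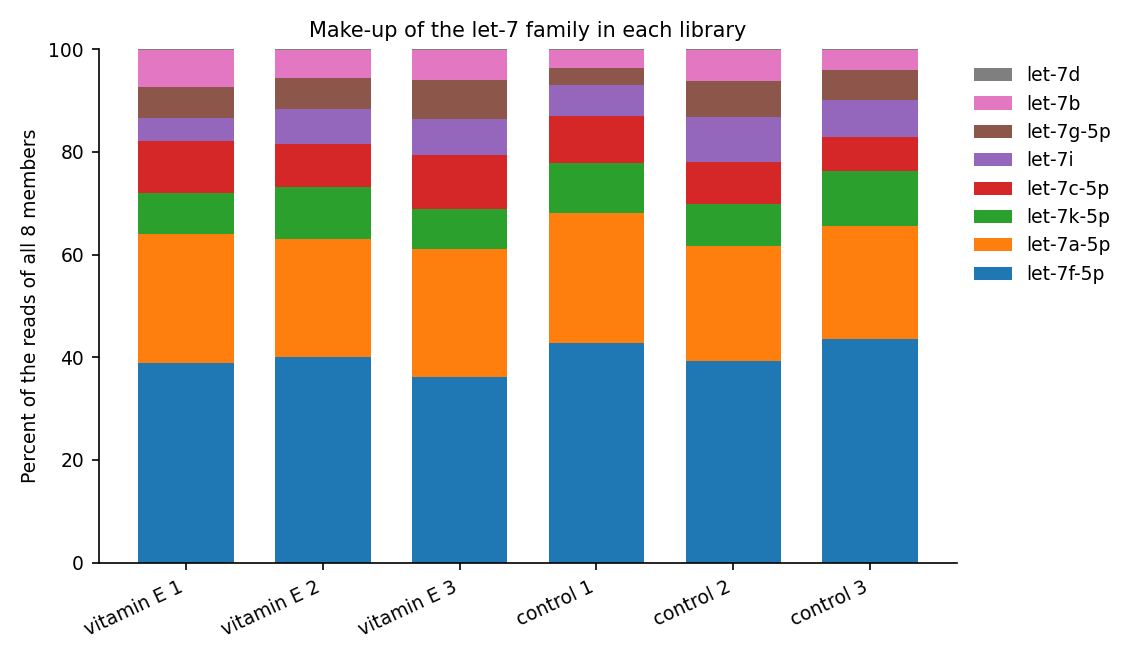
Stacked bars of each member's percent of the reads of all 8 let-7 members, by library, vitamin E libraries on the left and controls on the right. let-7f-5p and let-7a-5p fill 61.1% to 68.2% of every bar, and the let-7g-5p and let-7b segments are thinnest in control 1.

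Isoforms did not all vary together over the 6 libraries. Pearson correlations of log2 CPM on TMM-scaled library sizes were 0.95 between let-7a-5p and let-7c-5p, 0.91 between let-7f-5p and let-7k-5p and 0.88 between let-7a-5p and let-7f-5p. let-7g-5p correlated at 0.77 with let-7b, and at -0.68 with let-7k-5p and -0.43 with let-7f-5p. In control 1 let-7g-5p had its lowest CPM, 3464, and let-7k-5p and let-7f-5p their highest, 10081 and 44770. Correlations without control 1 were not computed, so the negative values may rest on that library. All these correlations are descriptions over 6 libraries that share their scaling factors, and the part of reads shared between near-identical isoforms was not tested.

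Of 88 abundant miRNAs outside the family and its cluster mates (mean of at least 100 CPM), the 4 whose log2 CPM followed the summed family most closely over the 6 libraries were miR-22-3p, miR-126-3p, miR-181b-5p and miR-30c-5p. Picking the highest of 88 over 6 libraries yields high values by itself, and the CPM share each library's scaling factor with the family sum. These correlations were not tested. Pearson's r was 0.90 for miR-22-3p, with Spearman's rho 0.83. For miR-126-3p, the endothelial miRNA, r was 0.89 and rho 0.89. miR-181b-5p had r 0.88 and rho 0.83, and miR-30c-5p had r 0.81 and rho 0.60. Without vitamin E 1 and control 1, the 2 libraries farthest from the median of the family, r was 0.80 for miR-22-3p, 0.80 for miR-181b-5p and 0.77 for miR-30c-5p. It was 0.21 for miR-126-3p, though so few remaining libraries cannot show what its likeness rests on.

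The passenger arms were scarce, and their largest differences lay within the control group. let-7 reads of the 3p arms made up 0.125%, 0.126% and 0.292% of all let-7 reads with vitamin E and 0.522%, 0.122% and 0.184% in control. Control 1 was the highest library, with a 95% Wilson interval of 0.504% to 0.540%, and vitamin E 3 the next. The reads carry no molecular identifiers as far as the labels tell and may not be independent molecules, so such intervals take in counting error alone.

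let-7a-3p had 46.7, 37.1 and 83.0 TPM with vitamin E and 299.8, 28.4 and 45.0 TPM in control. let-7a-2-3p, the passenger arm named for the let-7a-2 hairpin, had 5.13, 4.96 and 10.3 TPM with vitamin E and 25.8, 2.59 and 5.98 TPM in control. let-7c-3p had 4.45, 5.66 and 7.22 TPM with vitamin E and 23.2, 3.38 and 6.12 TPM in control. In all 3 cases control 1 was the highest library and control 2 the lowest, so that the vitamin E libraries lay inside the range of the controls.

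let-7f-3p, at 8, 4 and 15 reads with vitamin E and 30, 5 and 6 reads in control libraries, was too rare to be tested and was likewise highest in control 1. let-7j-3p had 53.6, 48.4 and 111 TPM with vitamin E and 114, 44.3 and 52.7 TPM in control, with vitamin E 3 and control 1 both high. let-7g-3p stood apart from these, with 7.87, 6.65 and 7.54 TPM with vitamin E and 5.55, 11.5 and 13.6 TPM in control, and control 1 was its lowest library. Against the mean of the other 5 libraries, control 1 held 6.24 times the let-7a-3p, 4.45 times the let-7a-2-3p, 4.33 times the let-7c-3p, 3.63 times the let-7f-3p and 0.588 times the let-7g-3p. The guide arms of the same hairpins were at 1.23 times for let-7a-5p, 1.19 for let-7c-5p, 1.24 for let-7f-5p and 0.581 for let-7g-5p. Control 1 was singled out after its values were seen. Its TMM factor was 0.860, against 1.004 to 1.054 for the other libraries. The share of all miRNAs that were highest in control 1 was not counted, and whether the excess is particular to let-7 was not tested.

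**Figure D4:**
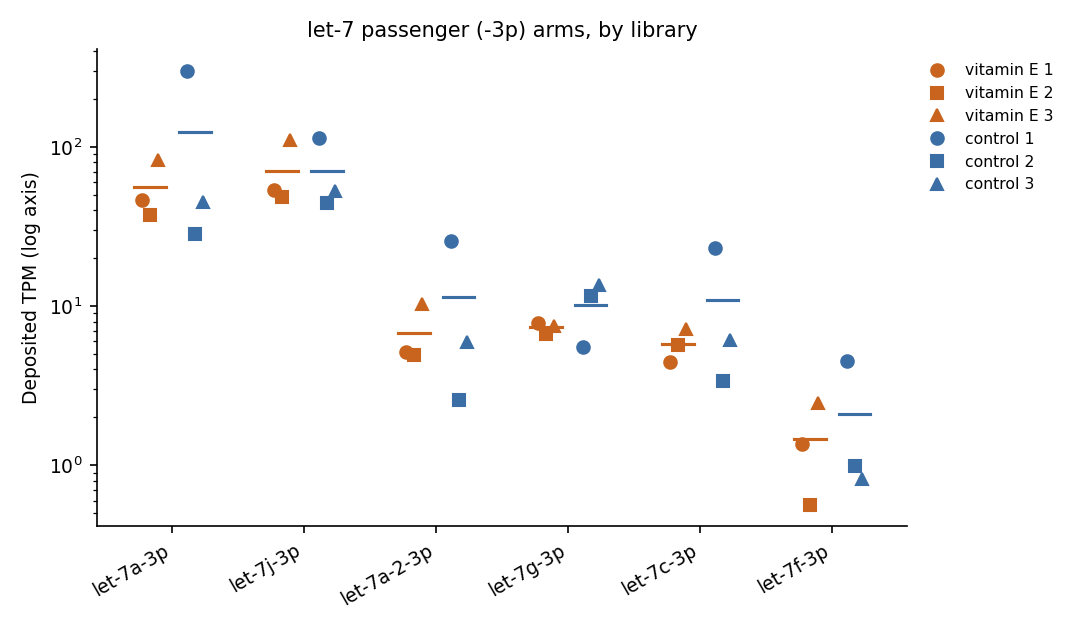
Deposited TPM on a log axis for the 6 let-7 passenger arms, with vitamin E libraries in orange left of control libraries in blue and bars at the group means. Control 1 (blue circle) is the highest library for 5 of the 6 arms and the lowest for let-7g-3p. The same count over all miRNAs was not made.

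No passenger arm passed the test. Of 5 tested arms 0 were called by edgeR's quasi-likelihood test, against 0.420% over all miRNAs. The smallest unadjusted p in that test was 0.162, so 0 of 5 lay under 0.05, against 18 of 238 over all miRNAs. DESeq2 and limma-voom called 0 of the 5 arms as well. For the 5 arms that passed the filter, all fitted log2 fold changes were negative, with a median of -0.97 against -0.07 over all 238. They were -1.39 (SE 0.90) for let-7a-3p, -1.12 (SE 0.76) for let-7c-3p, -0.97 (SE 0.85) for let-7a-2-3p, -0.55 (SE 0.45) for let-7g-3p and -0.16 (SE 0.53) for let-7j-3p. With scaling by library totals alone 4 were negative, let-7j-3p being at 0.012. The median of the 5 arms was nearer 0 in other fits, at -0.49 with limma-voom, -0.35 with limma on log2(TPM + 1), -0.38 with limma on log2(TPM + 0.1) and -0.47 with the replicate block. let-7a-3p was then at -0.58, -0.47, -0.47 and -0.47, in the same order of fits.

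Without control 1 the signs of 4 of these 5 turned. The log2 fold changes were then 0.49 for let-7a-3p, 0.53 for let-7a-2-3p, 0.16 for let-7c-3p and 0.44 for let-7j-3p, while let-7g-3p stood at -0.88 (edgeR adjusted p = 0.540).

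The balance between the arms of a hairpin was compared as reads on the 5p arm over reads on the 3p arm within each library. let-7a, let-7c and let-7g had at least 10 reads on both arms in every library, out of 44 such hairpins in the table. let-7b, let-7d and let-7i are listed without arms. let-7k has a 5p row and let-7j a 3p row, so neither gives a ratio. Because let-7a-5p can come from several hairpins, its ratio to let-7a-3p is not that of a single hairpin.

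let-7g-5p exceeded let-7g-3p by 740, 745 and 754 times with vitamin E and by 537, 453 and 290 times in control. The 3 vitamin E libraries were nearly equal and all lay above the 3 controls. On the log2 scale the ratio was 9.54 ± 0.01 with vitamin E and 8.69 ± 0.46 for controls (SD, n = 3 each), a difference of 0.85 with an exact permutation p of 0.1, two-sided, the smallest this design gives. Control 3 lay farthest from the vitamin E libraries, and without it the difference was 0.60. After Benjamini-Hochberg adjustment over the 44 hairpins the exact permutation p was 0.880. Groups were apart with vitamin E higher for 3 of the 44 hairpins (6.82%), let-7g among them, and with vitamin E lower for 1 (2.27%). The others with vitamin E higher were miR-193a (mean log2 ratio -6.38 against -7.14) and miR-22 (-10.6 against -11.5). In both, unlike let-7g, the 3p arm was the more abundant, so a higher ratio there means relatively more of the rarer arm.

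The 3p side of the let-7g ratio rests on 46, 47 and 46 reads with vitamin E, against 37, 58 and 100 reads in control. Its percent of the hairpin's reads was 0.135%, 0.134% and 0.132% with vitamin E and 0.186%, 0.220% and 0.344% in control. The 95% Wilson intervals of control 1 (0.135% to 0.256%) and control 2 (0.170% to 0.285%) overlapped all 3 vitamin E intervals. That of control 3 (0.283% to 0.418%) lay above all 3 vitamin E intervals. For vitamin E 1 the interval was 0.101% to 0.180%, far wider than the spread of the 3 vitamin E libraries. The near equality of those 3 libraries is therefore not a measure of precision.

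let-7a-5p exceeded let-7a-3p by 512, 511 and 226 times with vitamin E and by 76.4, 589 and 327 times in control. let-7c-5p exceeded let-7c-3p by 2168, 1236 and 1093 times with vitamin E and by 357, 1788 and 725 times in control. For both hairpins control 1 had the smallest excess, and without it the groups still overlapped. The log2 difference between groups was 0.67 for let-7a (exact permutation p = 0.7, two-sided; -0.17 without control 1) and 0.89 for let-7c (exact permutation p = 0.3, two-sided; 0.33 without control 1). Adjusted over the 44 hairpins by Benjamini-Hochberg, the exact permutation p was 0.962 and 0.880.

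Libraries at the extremes of arm balance were also counted over all 44 hairpins. The ratio was 5p over 3p for every hairpin, also where the 3p arm was the more abundant, as for miR-22 and miR-130b. The counts and the median below therefore do not show whether a library leaned to its passenger arms. Control 3 had the lowest log2 ratio of the 6 libraries for 16 of the 44 (36.4%), let-7g among them, and the highest for 5 (11.4%). Control 1 was lowest for 10 (22.7%) and highest for 15 (34.1%), with a median shift of 0.02 from the mean of the others. Each of the other 4 libraries was lowest for 3 to 6 hairpins and highest for 4 to 9. In control 1, let-7a at -2.42 was the second lowest of the 44, after miR-18a at -2.58, and let-7c at -1.87 the fourth lowest, after miR-1729 at -1.95. At the high end the shifts were larger, at 3.64 for miR-130b and 2.98 for miR-1416. miR-130b-5p, the less abundant arm of its hairpin, was at 138 TPM in control 1 and at 16.1 to 33.6 TPM elsewhere. let-7g at -0.06 lay within the other libraries.

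**Figure D5:**
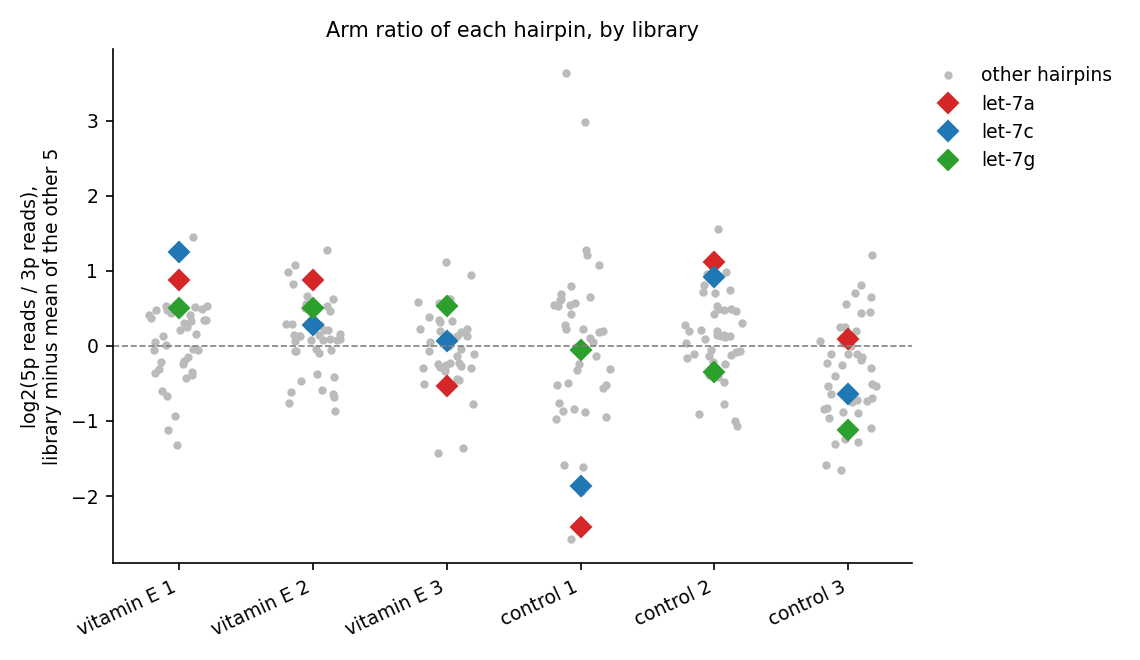
Log2 ratio of 5p to 3p reads for 44 hairpins, each drawn as a library's value minus the mean of the other 5 libraries, with let-7a in red, let-7c in blue, let-7g in green and the other hairpins in grey. In control 1 let-7a and let-7c lie at -2.42 and -1.87 and let-7g at -0.06; the let-7g points are level across the 3 vitamin E libraries.

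The miRNAs whose genes neighbour let-7 genes were examined beside the family. miR-99a lies by let-7c, miR-100 by let-7a-2, and miR-125b by both. They are processed from hairpins of their own. None of the 6 tested arms was called by edgeR's quasi-likelihood test, where 1 of 238 (0.420%) was called over all miRNAs. Their smallest unadjusted p in that test was 0.110, so 0 of 6 lay under 0.05, against 18 of 238 over all miRNAs. DESeq2 and limma-voom also called 0 of the 6. On the fitted log2 scale 4 of 6 were above 0 and 2 below, against 109 and 129 over all 238. The median of the 6 arms was 0.22, against -0.04 over the let-7 members.

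miR-100-5p, at 30871, 25070 and 29605 TPM with vitamin E and 18399, 26858 and 22345 TPM in control, had a log2 fold change of 0.24 (SE 0.21; 0.12 without control 1). miR-99a-5p had 5202, 4350 and 5206 TPM with vitamin E and 3225, 4664 and 4074 TPM in control (log2 fold change 0.21, SE 0.23; 0.072 without control 1). miR-125b-5p had 14545, 18831 and 15580 TPM with vitamin E and 27257, 16003 and 20419 TPM in control, with a log2 fold change of -0.52 (SE 0.29; -0.27 without control 1). For all 3 the groups overlapped.

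miR-100-3p was the 1 arm of the 6 whose groups were apart, at 23.8, 26.2 and 25.6 TPM with vitamin E against 7.35, 20.9 and 17.7 TPM in control, where 10.9% of all tested miRNAs were apart with vitamin E higher. Its log2 fold change was 0.65 (SE 0.44; edgeR adjusted p = 0.738), and 0.29 without control 1. In control 1 miR-99a-5p and miR-100-5p were below all other libraries, at 0.686 and 0.683 times their mean, as let-7g-5p was. miR-125b-5p was above all other libraries there, at 1.60 times, as let-7f-5p and let-7k-5p were. miR-202-5p, listed here because the opposite arm of its hairpin resembles let-7 in its seed, had 1 to 7 counts a library and was not tested.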

How the data were processed

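The authors deposited unnormalised counts, whole numbers for each mature miRNA and library, per the file headers. They also deposited TPM, which by the values is each count scaled to a library total of 1e+06. The sources used here do not state the aligner, the counting rule, the genome build or the library kit.

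All 667 rows were fitted together with edgeR 4.0.16 in R 4.3.3: TMM factors, filterByExpr by group (minimum count 10, minimum total 15), robust quasi-likelihood F test, Benjamini-Hochberg adjustment over the 238 miRNAs tested, threshold 0.05. Of the let-7 rows, 8 of 8 members and 5 of 6 passenger arms passed the filter. The fit was checked on simulated data, with changes larger than any fitted for a let-7 row. That check does not bear on small changes. Family shares and arm ratios were computed within libraries and compared by two-sided exact permutation tests over 20 relabellings. Gene neighbours come from GRCg7b; positions are left out, the authors' build being unstated. A count of 0 allows up to 3 counts, 0.408 to 0.597 TPM by library.

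Alternatives were other scaling and filters, DESeq2 1.42.0, limma 3.58.1 (voom, and log2(TPM + 1) or log2(TPM + 0.1)), a replicate block and each library left out. Members and lists were chosen with earlier results of these data known. Named miRNAs are all let-7 rows, their related and neighbouring miRNAs, and the 4 others most correlated with the summed family. The miRNAs miR-18a, miR-1729, miR-130b, miR-1416, miR-193a, the miR-22 hairpin and marker miRNAs named singly were chosen after their values were seen.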

Additional observations from a re-analysis of the deposited data

How the results depend on the processing

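With 3 libraries a group, small differences between vitamin E and control were beyond reach. In the permutation tests no difference of any size could pass 0.05, since the smallest exact permutation p is 0.1. The number of let-7 members called was 0 in all 16 alternative fits. The count over all miRNAs, 1 as reported, was 0 with upper-quartile factors (18 with an unadjusted p under 0.05 in edgeR), 8 without the filter, 3 with DESeq2, 3 with limma on log2(TPM + 1), and 0 to 1 with a library left out. With the replicate number as a block it was 5, and no let-7 row was called; libraries of the same number showed no shared deviation (correlations -0.17, 0.002 and -0.02). Members kept the direction of their fold change in 118 of 128 alternatives. let-7a-5p turned to -0.05 with upper-quartile factors and -0.028 with the 10 CPM filter, let-7f-5p to 0.00031 with limma on log2(TPM + 1) or log2(TPM + 0.1), and let-7j-3p to 0.012 with totals alone, 0.036 with log2(TPM + 1) and 0.037 with log2(TPM + 0.1). With libraries left out, log2 fold changes ran from -0.17 to 0.29 for let-7a-5p, -0.033 to 0.55 for let-7c-5p, -0.32 to 0.013 for let-7d, -0.29 to 0.036 for let-7f-5p, -1.88 to 0.49 for let-7a-3p, -1.47 to 0.53 for let-7a-2-3p, -1.52 to 0.16 for let-7c-3p and -0.69 to 0.44 for let-7j-3p. The let-7a arm difference ran from -0.17 to 1.30, and the let-7d share difference from -0.0212 to 0.0012 percentage points. The causes were not tested. Adding let-7a-2-3p to the passenger arm of let-7a, chosen after seeing the data, gave 0.65. Summing members that differ by 1 base was not run, since no miRNA sequences were used here, and the minimum of 100 reads gave no value for let-7c and let-7g.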
